A study of Mus musculus with 2 samples.

Results

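The bone region of the Control section was a set of spots that covered the bone at the fracture site between the middle pins of a healing mouse femur. The authors picked these spots on the stained histological image, so no measured gene decided their choice. A spot is a small printed area of the Visium slide that captures RNA probes from the tissue above it, and it can hold several cells of different types. All of its spots passed the limits of 500 unique molecular identifiers (UMIs, each standing for 1 captured probe pair) and 250 genes, with 1363 UMIs in the shallowest of them. They lay in strips along both sides of the marrow cavity and are described in 4 blocks of 35, 34, 31 and 31 spots. They made up 6.9% of the 1898 Control spots that passed, out of 1962 spots under tissue. The other 1767 spots formed the rest of the section and were the comparison.

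The section came from a female bone cell reporter mouse, a line in which *Ibsp* was tagged with eGFP and *Acp5* with mCherry by CRISPR-Cas9. The femur was cut in the middle of its shaft at 12 weeks of age and held by an external fixator. From week 3 the Control mouse was sham-loaded at 0 N and the Loaded mouse received cyclic loading, both 3 times per week, and both femurs were taken at week 5, when the mice were 17 weeks old. Each group was 1 section of 1 mouse. Both mice carried the reporter alleles and the osteotomy, so neither section was intact or wild-type bone. Every difference given here therefore describes this section, with no replicate check and no p-value.

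Bone is renewed by osteoblasts, which lay down a matrix of type I collagen and mineral-binding proteins, and by osteoclasts, which dissolve it with acid, cathepsin K and matrix metalloproteinases. Osteoblasts that become walled into the matrix turn into osteocytes, the cells that secrete sclerostin, an inhibitor of Wnt signalling. In a fracture gap these cells lie beside periosteum, callus cartilage, marrow, nerve, vessels and the muscle around the shaft, so a bone spot and a spot of the rest can each hold several of them.

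Levels are given as UPM, the UMIs of a gene summed over the spots of a region per 1000000 UMIs of that region. The bone region held 557259 UMIs with a median of 3478 per spot, and the rest held 8426953 with a median of 2166. The log2 ratio of bone over rest carries an exact binomial 95% interval, which covers counting error only. Genes with at least 100 UMIs over the section were compared, 8390 of 19465, and a gene was called at 2-fold or more. As a measure of spread inside the region, its spots were divided into the 4 blocks, which were the upper and lower block of side 1 and the upper and lower block of side 2. The blocks are parts of 1 section, not replicates.

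Most compared genes of the bone matrix, collagen processing, osteoclast, small proteoglycan, fibroblast, tendon and nerve sheath lists were called higher in the bone region, and most fat cell genes were called lower. In all, 1296 genes (15.4%) were at least 2-fold higher and 221 (2.63%) at least 2-fold lower, so 85.4% of the calls were higher. Of the 1296, 621 lay above the rest in all 4 blocks, and of the 221, 183 lay below it in all 4. The median log2 ratio of all compared genes was 0.34, and 70.9% of them were above 0. Fast muscle genes made up 31.2% of the UMIs of the rest and 16.7% in the bone region. The balance of the calls depended on the scaling. With the trimmed mean of M-values (TMM) the median moved to -0.23, with 301 genes higher and 946 lower (24.1% higher). The median of ratios gave 683 higher and 453 lower (60.1%), and equal weight for every spot gave 625 and 339 (64.8%). List medians below are therefore to be read against 0.34, and counts of list members called against 15.4% higher and 2.63% lower.

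**Figure D1:**
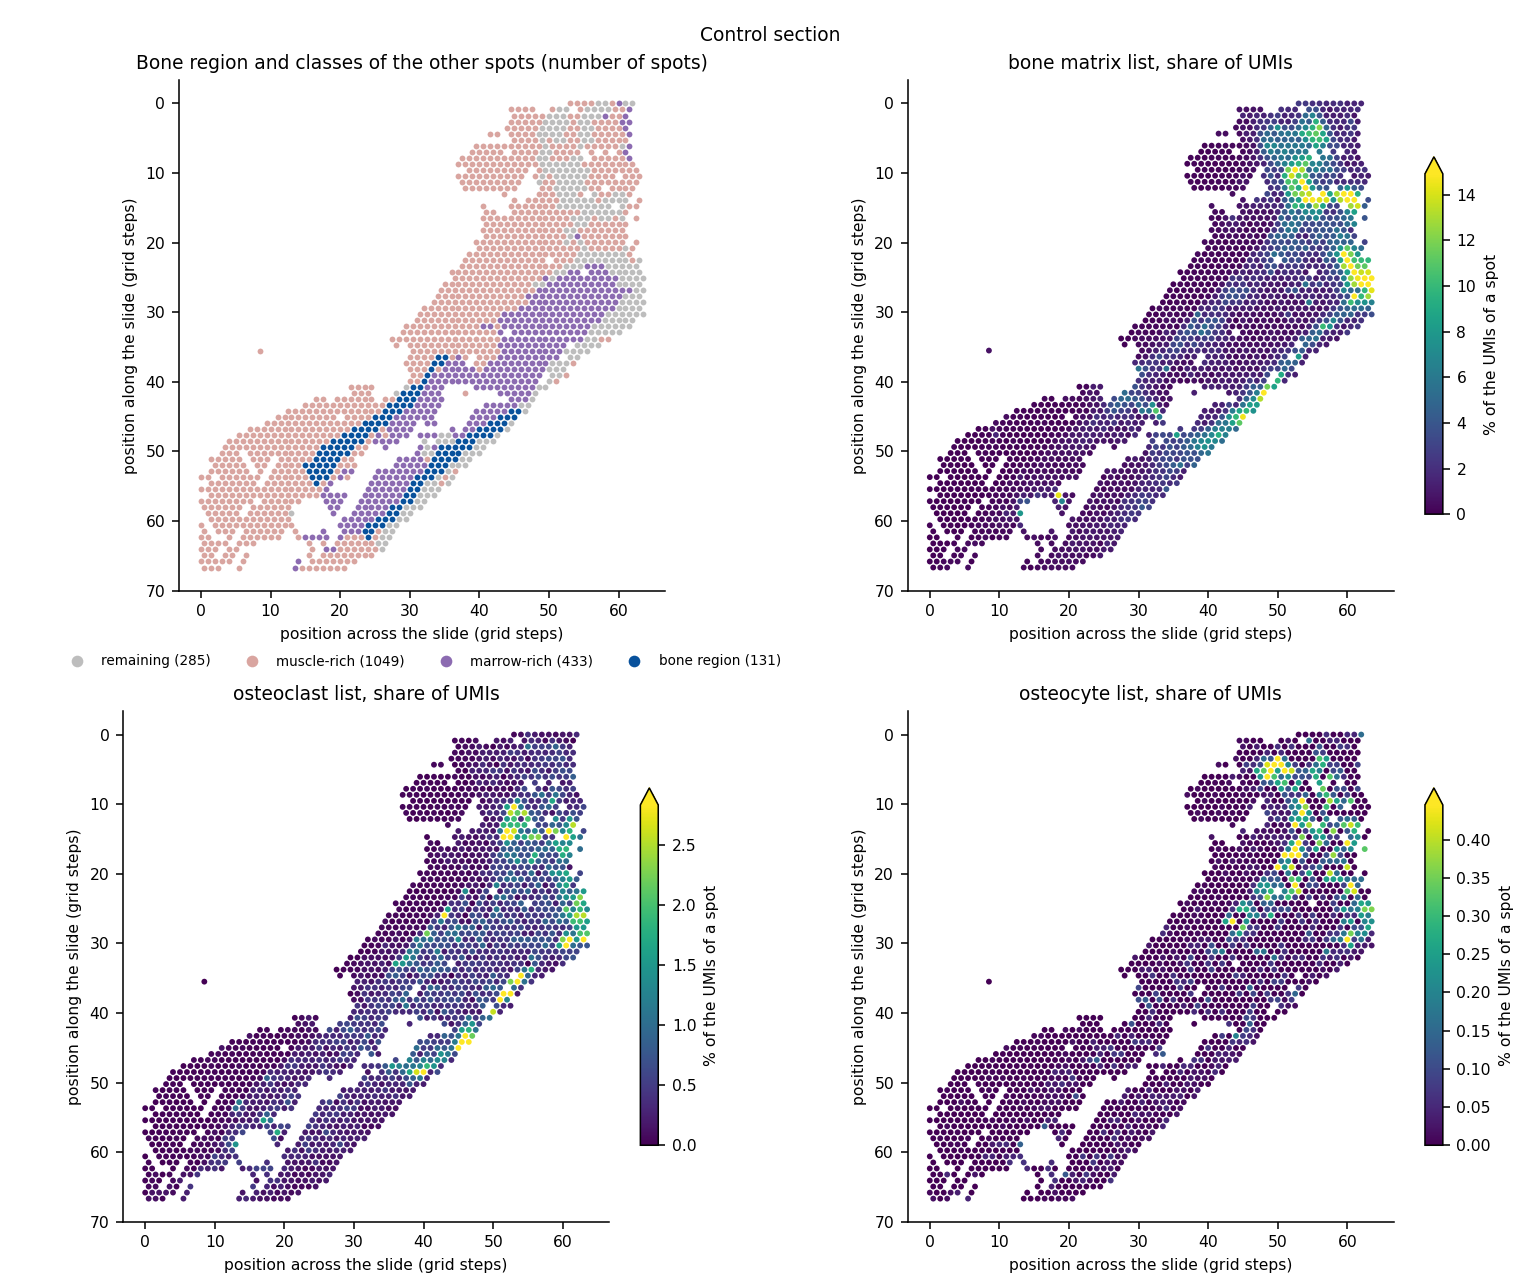
Maps of the Control section, with both axes in grid steps of the spot array. The first panel shows the bone spots (blue) in their strips on either side of the marrow cavity among muscle-rich (1049), marrow-rich (433) and remaining (285) spots, and the others show the share of a spot's UMIs in % for the bone matrix, osteoclast and osteocyte lists. The brightest spots of the bone matrix and osteocyte lists lie at the upper right end, outside the bone region. Bright osteoclast spots lie both there and in the bone region, where the share reaches 4.29%. The bone spots with the most bone matrix and osteoclast UMIs form the upper part of the lower right strip.

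Bone matrix genes come first as the markers of the tissue. Of 13 compared genes 10 were at least 2-fold higher and none at least 2-fold lower, with a median log2 ratio of 1.56, and together the list made up 2.59% of the UMIs in the bone region and 0.933% in the rest. Only 1 of the 13 lay above the rest in all 4 blocks. *Ibsp*, which encodes bone sialoprotein, a matrix protein that binds mineral, was at 299 and 108 UPM in the upper and lower blocks of side 1 and at 1646 and 63.2 in those of side 2. Its level over the whole region was 511 against 96.0 in the rest, a log2 ratio of 2.41 (2.21 to 2.61), but the lower block of side 2 was below the rest. UMIs of *Ibsp* were found in 63 of the bone spots.

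*Col1a1*, a chain of type I collagen, was at 5140, 1280, 18876 and 6037 UPM in the same order of blocks (side 1 upper, side 1 lower, side 2 upper, side 2 lower) and at 1775 in the rest, with a log2 ratio of 2.07 (2.02 to 2.12). Again 1 block, here the lower block of side 1, was below the rest. *Spp1* (osteopontin, which anchors cells to mineral) stood at 698, 433, 2473 and 232, with 227 in the rest and a log2 ratio of 2.04 (1.90 to 2.18). *Sparc*, the collagen-binding protein osteonectin, had a log2 ratio of 1.91 (1.83 to 1.99). The fibril collagens *Col5a1* (1.40), *Col5a2* (1.56) and *Col11a1* (2.13) were likewise higher. *Col1a2*, the partner chain of *Col1a1*, had a log2 ratio of 1.12 (1.08 to 1.16) from summed UMIs and -0.16 when every spot had equal weight.

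The osteocalcin gene *Bglap*, a product of mature osteoblasts, was not called. Its level was 427, 207, 56.5 and 323 UPM in the 4 blocks and 174 in the rest, with a log2 ratio of 0.38 (0.10 to 0.64) that turned to -0.20 with TMM and -0.99 with equal weight per spot. The block with the most *Ibsp* thus had the least *Bglap*. *Bglap* has near-identical neighbours (*Bglap2*, *Bglap3*) that its probe may also take up, so its level is uncertain in this respect. *Col11a2* (-0.36) and *Col22a1* (-0.63) were the matrix genes with negative ratios, and their intervals included 0 in both cases.

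Regulatory sequence is shown for *Ibsp*, *Spp1*, *Mmp13* and *Bglap*, since *Runx2*, the transcription factor that commits cells to the osteoblast lineage, binds core sites in promoters and these genes differed in ratio. The sequences run 5′ to 3′ on the strand of the gene, are from RefSeq (GRCm38.p6) and end before the first annotated start of the gene. Capitals mark ACCACA or its reverse complement TGTGGT, the only letters searched for, on both strands. The windows are chr5:104299037-104299170 (plus strand) for *Ibsp*, chr5:104434861-104435110 (plus strand) for *Spp1*, chr9:7272264-7272513 (plus strand) for *Mmp13* and chr3:88384467-88384716 (minus strand) for *Bglap*.
Ibsp: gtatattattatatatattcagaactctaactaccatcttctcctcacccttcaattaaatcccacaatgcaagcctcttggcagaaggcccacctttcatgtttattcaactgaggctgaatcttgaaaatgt
Spp1: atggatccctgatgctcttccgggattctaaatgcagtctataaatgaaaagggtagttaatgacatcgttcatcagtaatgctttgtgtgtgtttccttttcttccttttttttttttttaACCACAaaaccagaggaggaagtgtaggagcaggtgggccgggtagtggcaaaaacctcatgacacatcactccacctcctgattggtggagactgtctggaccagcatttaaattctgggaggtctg
Mmp13: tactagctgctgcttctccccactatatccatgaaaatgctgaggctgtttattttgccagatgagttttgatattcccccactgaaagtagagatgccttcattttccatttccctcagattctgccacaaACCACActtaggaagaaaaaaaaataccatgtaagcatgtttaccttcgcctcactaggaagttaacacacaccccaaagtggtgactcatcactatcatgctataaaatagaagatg
Bglap: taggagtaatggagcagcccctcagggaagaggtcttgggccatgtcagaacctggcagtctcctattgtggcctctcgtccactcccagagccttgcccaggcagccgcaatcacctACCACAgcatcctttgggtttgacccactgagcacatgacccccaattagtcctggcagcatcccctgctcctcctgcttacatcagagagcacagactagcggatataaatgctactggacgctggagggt
The letters occurred once in each of the *Spp1*, *Mmp13* and *Bglap* sequences, of 250 bases, and not in that of *Ibsp*, which is shorter at 134 bases. Nor did they occur in the full *Ibsp* window of 300 bases. Over windows from 250 bases before to 50 after the start, they occurred in 16.8% of all 32851 RefSeq promoters, in 12.1% of those of compared genes, in 13.2% of those of genes called higher and in 15.2% of those of genes called lower. A match is a description of the letters and not a binding site.

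Transcription factors and secreted regulators of the osteoblast lineage were at low counts. Of 7 compared regulators 1 was called higher and none lower, a share close to the 15.4% called higher over all compared genes. It was *Creb3l1*, which drives collagen secretion, at 1.12 (0.35 to 1.82) from 19 UMIs. *Runx2* was at 42.7, 54.1, 198 and 91.4 UPM in the 4 blocks and at 52.1 in the rest, with a log2 ratio of 0.92 (0.49 to 1.33). *Dlx5* had the same ratio and *Twist1* was at 0.97. The list had a median of 0.92, and -0.27 with equal weight per spot. Mineralization genes had a median of 0.44, which turned to -0.13 with TMM and -0.04 with equal weight, with 2 of 7 called higher. These were *Fam20c* (1.19), a kinase of secreted matrix proteins, and *Mgp*. The alkaline phosphatase gene *Alpl* was at 0.36 (-0.31 to 0.96), and at -0.21 with TMM and -1.04 with equal weight per spot. *Phospho1*, a phosphatase that starts mineral formation and is also active in muscle, was at -0.84 (-1.26 to -0.44).

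*Mgp* encodes matrix Gla protein, an inhibitor of calcification. It was at 2449, 783, 11254 and 4828 UPM in the 4 blocks against 905 in the rest, with a log2 ratio of 2.37 (2.31 to 2.44). Of the blocks, the lower one of side 1 lay below the rest. Spots 1 step outside the bone strips, away from the marrow, were at 4703, close to the 4685 of the bone region, and spots 1 step inside them were at 2404.

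Defining markers of osteocytes were not higher in the bone region than in the rest. *Dmp1*, a mineral-nucleating protein of osteocytes, was at 57.0, 78.7, 21.2 and 35.1 UPM in the blocks and at 50.6 in the rest, with a log2 ratio of -0.01 (-0.62 to 0.54) from 28 UMIs. *Sost*, which encodes sclerostin, was at 42.7, 54.1, 7.06 and 28.1 against 46.5, a log2 ratio of -0.45 (-1.20 to 0.21) from 19 UMIs. *Pdpn*, an early osteocyte marker that lymphatic vessels and fibroblasts also make, was the only one of 4 compared osteocyte genes called higher, at 2.03 (1.54 to 2.49). The osteocyte list made up 0.0197% of the UMIs of the region and 0.0145% of the rest, and 55 of the bone spots had none of it. Against the spots of the rest beside the shaft only, within the range of the bone strips along it, the median of the list was 1.79 instead of -0.14. *Dmp1* was at 10.5 and *Sost* at 7.40 in those spots. By list medians, matrix genes were thus higher than in the whole rest, and osteocyte genes than in the spots beside the shaft. The block with the most *Dmp1* and *Sost*, the lower one of side 1, had the smallest bone matrix share, at 0.609% of UMIs. It also had the smallest share of the whole osteocyte list, at 0.0167%, with 0.0204% to 0.0256% in the other blocks. The block levels of *Dmp1* and *Sost* divide the 28 and 19 UMIs of the region, so their order is uncertain.

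**Figure D2:**
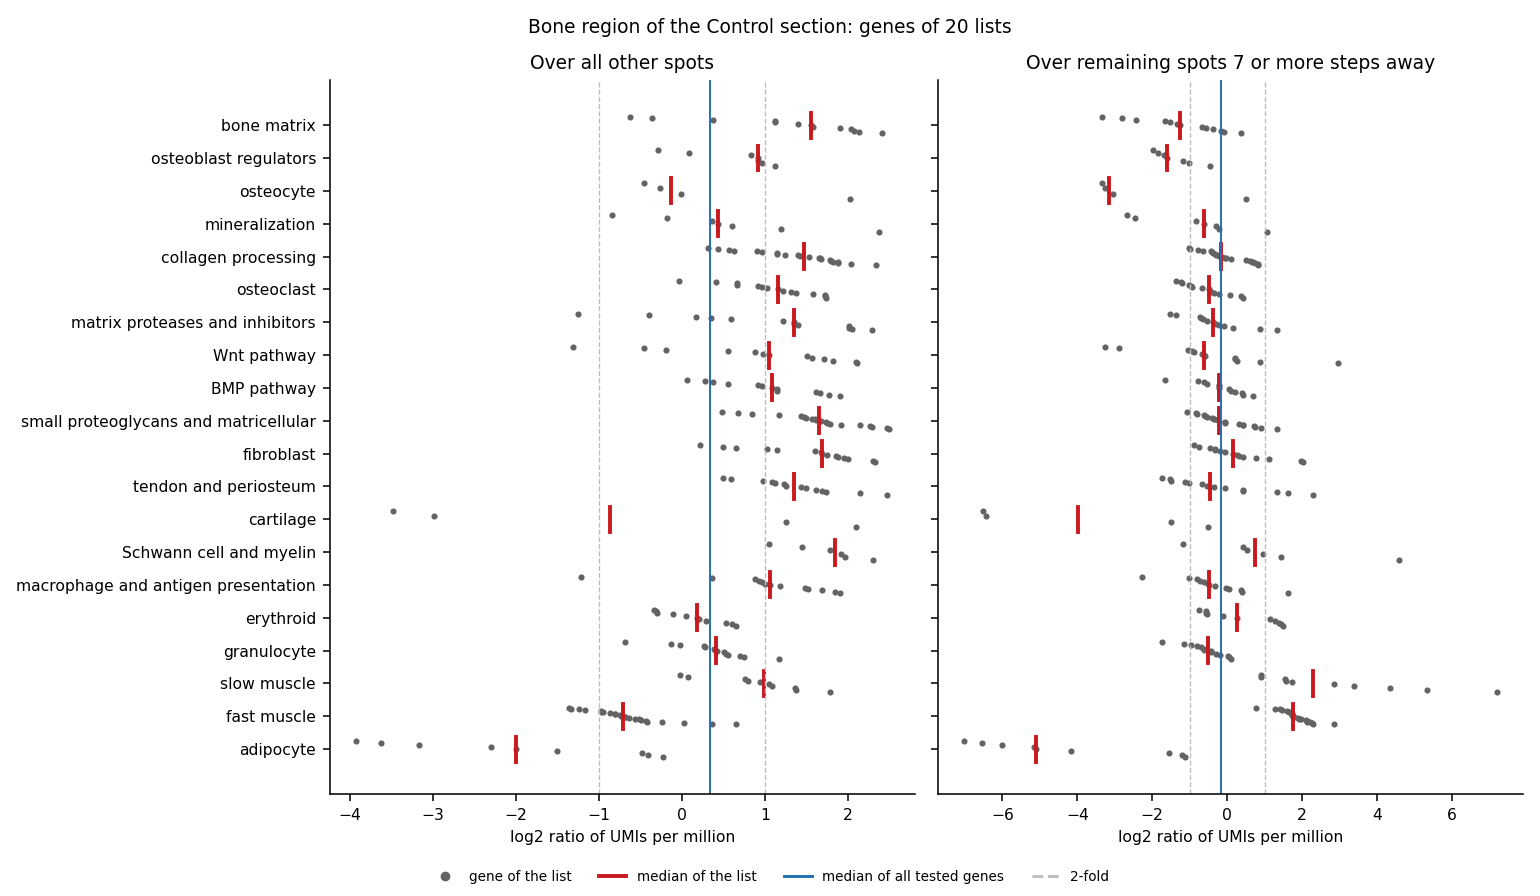
Log2 ratios of UPM for the compared genes of 20 lists, as grey points with the list median in red, the median of all compared genes in blue and 2-fold as dashed lines. In the left panel (over all other spots) the bone matrix median is 1.56 and the adipocyte median -2.00, and in the right panel (over the remaining spots 7 or more steps away) the bone matrix median is -1.25 and the osteocyte median -3.15.

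Of 22 compared genes that process and crosslink collagen 16 were called higher and none lower, with a median of 1.48, and 12 lay above the rest in all 4 blocks. The subunits of prolyl 4-hydroxylase, which stabilizes the collagen helix, were among the 6 not called, with *P4ha1* at 0.44, *P4ha2* at 0.31 and *P4hb* at 0.63. *Fkbp10*, a chaperone of collagen folding, was at 85.4, 39.4, 212 and 204 UPM against 25.9, a log2 ratio of 2.34 (1.94 to 2.73). *Loxl1*, a crosslinking oxidase, was at 2.04 (1.78 to 2.30), and *Lox*, its best known relative, at 1.68 (1.29 to 2.05). *Pcolce* (1.88) and *Bmp1* (1.66), which trim procollagen ends, followed. Of the general secretory pathway 7 of 22 genes were called higher, with a median of 0.51, and -0.06 with TMM.

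Osteoclast genes were higher in the region, with 9 of 15 compared genes called higher and none lower, and a median of 1.16. *Ctsk*, the collagen-cleaving protease of osteoclasts, was at 1210, 1024, 4451 and 717 UPM, above the 555 of the rest in every block, with a log2 ratio of 1.73 (1.63 to 1.83). *Acp5*, tartrate-resistant acid phosphatase and a reporter gene of this mouse line, was at 484, 630, 3122 and 155 against 340, a log2 ratio of 1.72 (1.60 to 1.85). Its lower block on side 2 was below the rest. *Atp6v0d2*, a subunit of the proton pump, was at 1.72 (1.20 to 2.20), the pump subunit *Tcirg1* at 1.16 (0.73 to 1.57), and *Itgb3*, part of the attachment integrin, at 1.32 (0.66 to 1.92), and at -0.07 with equal weight per spot. *Mmp9* was at 641, 536, 1710 and 218 against 329, with a log2 ratio of 1.22 (1.07 to 1.37), and -0.13 with equal weight per spot. *Car2*, carbonic anhydrase, which red cell precursors also make, was at -0.03 (-0.28 to 0.21).

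Matrix proteases had 8 of 13 genes called higher and 1 lower, with a median of 1.35. *Mmp13*, the collagenase of osteoblasts and hypertrophic cartilage, was at 470, 153, 1597 and 91.4 UPM against 111, with a log2 ratio of 2.29 (2.10 to 2.48), and the lower block of side 2 was below the rest. *Mmp2* was at 2.05 (1.90 to 2.21) and *Mmp14*, the membrane protease that activates it, at 2.01 (1.71 to 2.29). The gene called lower was the inhibitor *Timp4*, at -1.25 (-2.07 to -0.54).

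Of 13 compared Wnt pathway genes 7 were called higher and 1 lower, with a median of 1.05. *Sfrp4*, a decoy that binds Wnt ligands, was at 356, 212, 650 and 1637 UPM, above the 164 of the rest in every block, with a log2 ratio of 2.11 (1.94 to 2.27). Its relative *Sfrp5* was at 14.2, 9.84, 56.5 and 204 against 16.7, a log2 ratio of 2.10 (1.56 to 2.62) that the side 2 blocks carried, and *Sfrp1* and *Sfrp2* were at 1.71 and 1.51. *Dkk3* was at 1.82 (1.41 to 2.21). Among the ligands *Wnt16*, made by osteoblasts, was at 1.57 (0.91 to 2.19), and *Wnt4* was the gene called lower, at -1.31 (-2.95 to -0.06) from 5 UMIs. The co-receptor *Lrp5* was at 1.05 (0.40 to 1.65), and the feedback target *Axin2* was at 0.98 (0.42 to 1.50). *Fzd2*, a Wnt receptor at chr11:102604396-102608058 (GRCm38, plus strand), had the highest ratio of all genes under the naming rule. It was at 85.4, 44.3, 247 and 323 UPM against 28.7, a log2 ratio of 2.58 (2.23 to 2.93). Its level was 172 over the region and 216 in spots of the rest within 3 steps that were rich in neither muscle nor marrow.

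BMP genes showed 7 of 13 called higher and none lower, with a median of 1.08. *Nbl1*, a secreted BMP antagonist, was at 712, 325, 2967 and 2143 UPM against 401, with a log2 ratio of 1.91 (1.80 to 2.02). The antagonist *Chrd* was at 1.62 (0.98 to 2.21) and the ligand *Gdf10* at 1.77 (1.25 to 2.26), while the receptors *Bmpr1a* (0.28) and *Bmpr2* (0.37) were near the median of all genes. The target *Id3* was at 1.15 (0.94 to 1.35). Of 3 compared genes that control osteoclasts 1 was called, *Il34*, at 1.00 (0.04 to 1.84) from 13 UMIs.

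Small proteoglycans and matricellular proteins, which bind collagen and growth factors, had 17 of 20 genes called higher and none lower, with a median of 1.65. *Bgn* (biglycan) was at 854, 320, 2925 and 1223 UPM, above the 262 of the rest in every block, a log2 ratio of 2.29 (2.17 to 2.41). *Aspn* was at 2.47 (2.07 to 2.86). Of the CCN family, *Ccn3* was at 2.49 (2.24 to 2.74) and *Ccn2*, a target of TGF-β and of stretch, at 2.26 (2.13 to 2.39). *Postn* (periostin, a protein of the periosteum) was at 199, 93.5, 798 and 415 against 83.7, a log2 ratio of 2.14 (1.91 to 2.36). *Tnc* was at 1.68 (1.39 to 1.97). Every block was above the rest for *Ccn3* and *Postn*.

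Tendon and periosteum genes had 11 of 14 called higher, with a median of 1.34, and fibroblast genes 12 of 15, with a median of 1.69, and neither list had a gene called lower. *Mfap5*, a microfibril protein, was at 157, 68.9, 247 and 394 UPM against 42.4, a log2 ratio of 2.30 (1.98 to 2.60). *Col3a1*, the collagen of loose connective tissue, was at 1.95 (1.88 to 2.02), and *Pi16*, a marker of fibroblasts of the vessel sheath, at 1.86 (1.66 to 2.06). *Angptl1* (2.52), *Col14a1* (2.43), *Cdh11* (2.34), *Fxyd6* (2.29) and *Arsb* (2.24) completed the genes with the highest ratios under the naming rule, together with *Tnnt2* and *Igkc*. Their blocks all lay above the rest, which the naming rule required. *Cdh11* is the cadherin of osteoblasts and other mesenchymal cells, and *Arsb* is a lysosomal enzyme that degrades glycosaminoglycans. In *Cdh11* and *Arsb* the upper block of side 2 stood apart, at 318 against 29.5 to 57.0 and at 339 against 42.2 to 71.2 UPM.

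Mechanosensing genes had 6 of 14 called higher and none lower, with a median of 0.85. The stretch-activated channel *Piezo2* was at 1.70 (0.98 to 2.36), from 23 UMIs, and *Piezo1* at 0.61 (-0.02 to 1.18). *Wwtr1*, which encodes the transcriptional co-activator TAZ, was at 1.06 (0.74 to 1.36), and *Yap1* at 0.40 (-0.18 to 0.93). *Pkd2*, a cilium channel, was at 1.90 (1.55 to 2.22). Of 13 immediate early genes 4 were called higher, with a median of 0.87, led by *Fosl2* (1.51), a Fos family factor, and *Junb* (1.50).

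**Figure D3:**
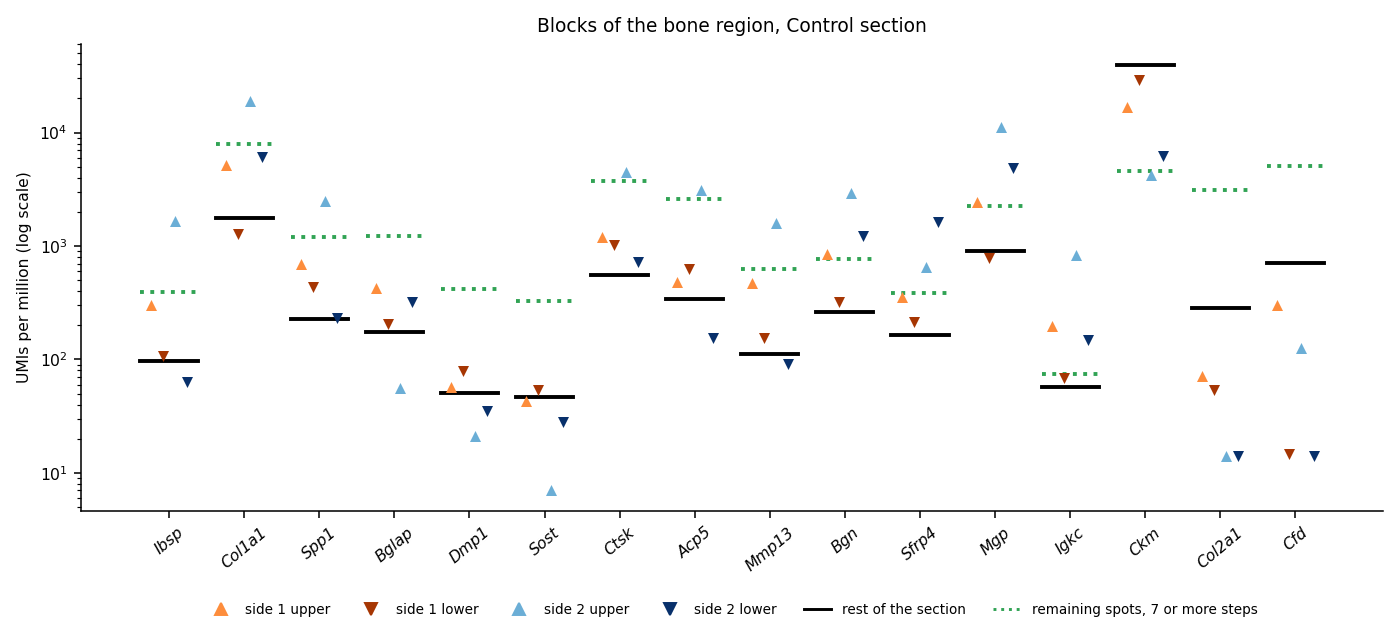
UPM (log scale) of 16 genes in the 4 blocks of the bone region (triangles), in the rest of the section (black bars) and in the remaining spots 7 or more steps away (green dotted bars). *Ibsp*, *Col1a1*, *Ctsk*, *Acp5* and *Mmp13* peak in the upper block of side 2 (*Ibsp* 1646 there against 63.2 to 299 elsewhere). *Bglap* (56.5), *Dmp1* (21.2) and *Sost* (7.06) are at their lowest in that block, and *Sfrp4* peaks in the lower block of side 2 (1637). *Dmp1* and *Sost* have only 28 and 19 UMIs in the whole region, so their order of blocks is uncertain.

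For the bone matrix and osteoclast lists the blocks differed more from each other than the region differed from the rest. The bone matrix list took 2.25% and 0.609% of the UMIs in the upper and lower blocks of side 1 and 6.09% and 2.09% in those of side 2. The osteoclast list took 0.383%, 0.290%, 1.13% and 0.224% in the same order. The median fast muscle share per spot was 14.5%, 30.6%, 5.51% and 7.68%. It was lowest in the block with the most bone matrix and highest in the block with the least, but the lower block of side 2, with little muscle, had the smallest osteoclast share. The part of muscle in these differences was not tested beyond the low-muscle spots below. Single spots ranged from 0.304% to 14.6% for the bone matrix list and from 0.0683% to 4.29% for the osteoclast list. Over all bone spots, which share 1 library, the shares of these lists had a Pearson correlation of 0.76 (Spearman 0.54), and those of bone matrix and fast muscle a correlation of -0.65 (Spearman -0.81). Shares of a spot sum to a whole, so a high share of any list lowers the others.

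The 15 bone spots with under 5% fast muscle UMIs, 12 of them in the upper block of side 2, had list medians of 3.09 for bone matrix and 1.99 for osteoclasts over the rest. Without the upper block of side 2 the bone matrix median was 0.38, the osteoclast median 0.46 and the number of genes called higher 794. Without the lower block of side 1, which lay against muscle, that number was 2288. Plasma cell transcripts were also high in the upper block of side 2. *Igkc*, an antibody light chain, was at 199, 68.9, 841 and 148 UPM against 57.0, with a log2 ratio of 2.40 (2.14 to 2.66), and *Igha*, a heavy chain, was at 2.18 (1.96 to 2.40), with 940 in that block. The heavy chains *Ighm* (-1.14) and *Ighg3* (-3.07, from 1 UMI) were called lower. The list of 7 compared B lymphocyte and plasma cell genes had 3 called higher and 2 lower, with a median of 0.77, and -0.38 with equal weight per spot.

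Other cell types of the fracture site were counted as a check on what a bone spot held. Macrophage and antigen presentation genes had 8 of 13 called higher and 1 lower, with a median of 1.06. *Csf1r*, the receptor of macrophages and osteoclast precursors, was at 85.4, 93.5, 261 and 119 UPM against 37.6, with a log2 ratio of 1.91 (1.54 to 2.27), and *Cd68* was at 1.84 (1.47 to 2.20). All 6 compared Schwann cell and myelin genes were called higher, with a median of 1.85. *Mbp*, a protein of the myelin sheath, was at 157, 49.2, 170 and 372 against 46.5, a log2 ratio of 1.92 (1.58 to 2.24).

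Vessel, stromal and marrow genes were nearer to the median of all genes. Endothelial genes had 4 of 12 called higher and a median of 0.74, with *Plvap*, a protein of fenestrated vessels, at 1.46 (1.10 to 1.79) and *Cdh5* at -0.13 (-0.65 to 0.35). Smooth muscle and pericyte genes had 2 of 10 called higher and a median of 0.41 (-0.16 with TMM). Marrow stroma genes had 3 of 9 called higher and 1 lower, with a median of 0.74 (-0.13 with equal weight per spot), and *Cxcl12*, the niche chemokine, was at 1.17 (0.85 to 1.46). Erythroid genes, 11 compared with none called, had a median of 0.18 and took 2.50% of the UMIs of the region against 1.72% of the rest. Granulocyte genes had 1 of 14 called higher (*S100a9*, 1.17), with a median of 0.41, and the 3 compared megakaryocyte genes had a median of 0.74. The erythroid and granulocyte medians turned negative with TMM (-0.40 and -0.17) and with equal weight per spot (-0.66 and -0.73). None of 6 compared proliferation genes was called, with a median of 0.00.

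Fast and slow muscle lists had medians on opposite sides of 0. Of 24 fast muscle genes 4 were called lower and none higher, with a median of -0.71, and *Myh2* (0.65) and *Mb* (0.36) were among those within 2-fold. *Ckm*, muscle creatine kinase, was at 16901, 28896, 4267 and 6262 UPM, below the 39352 of the rest in every block, with a log2 ratio of -1.36 (-1.39 to -1.33). With muscle-rich spots left out of the rest its ratio was 1.58. That rise was set by construction, because *Ckm* is in the list that defines those spots. Of 10 slow muscle genes 5 were called higher and none lower, with a median of 1.00. *Myh7*, the slow myosin heavy chain, was at 982, 935, 1413 and 5967 against 913, a log2 ratio of 1.36 (1.28 to 1.45) carried by the lower block of side 2. Without that block the slow muscle median was 0.12. *Tnnt2*, a troponin of heart and developing muscle, was at 57.0, 34.5, 240 and 288 against 26.2, a log2 ratio of 2.56. Oxidative phosphorylation genes had 1 of 14 called lower and a median of -0.43.

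The lowest ratios were found among fat cell and cartilage genes. Of 9 adipocyte genes 6 were called lower and none higher, with a median of -2.00. *Cfd*, the fat cell protease adipsin, was at 299, 14.8, 127 and 14.1 UPM against 706, a log2 ratio of -3.16 (-3.62 to -2.73), and the lipid carrier *Fabp4* was at -1.50 (-1.77 to -1.24). The fatty acid enzymes *Fasn* and *Scd1* were at -2.36 and -1.91. Of 4 cartilage genes 2 were called lower and 2 higher. *Col2a1*, the collagen of cartilage, was at 71.2, 54.1, 14.1 and 14.1 against 284, a log2 ratio of -2.99 (-3.70 to -2.36), and *Col9a1* was at -3.48 (-4.93 to -2.36) from 6 UMIs. With the rest restricted to the range of the shaft that the bone strips span, they were at 1.56 and 1.04, from the same 20 and 6 UMIs. *Acan*, the cartilage proteoglycan, was at 2.10 (1.37 to 2.79), and nearly all of its UMIs came from the upper block of side 2. *Comp* was at 1.25 (1.13 to 1.37). Without the upper block of side 2 *Acan* and *Comp* were at -2.00 and -0.34. The other genes with the lowest ratios were *Myot*, *Scn4a*, *Rab10*, *2310002L09Rik* and *Ss18l2*, at -1.66 to -1.33. *Myot* is a protein of the muscle Z-disc and *Scn4a* the sodium channel of muscle.

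The rest of the section was itself mixed, so its spots were sorted into 3 classes. Spots with at least 10% fast muscle UMIs (1049) were muscle-rich, those with at least 5% erythroid and granulocyte UMIs (433) were marrow-rich, and 285 remained. Against muscle-rich spots 2574 genes (30.7%) were at least 2-fold higher in the bone region, against marrow-rich spots 2064 (24.6%) and against remaining spots 353 (4.21%). The medians of all genes were 0.57, 0.34 and -0.23. The bone matrix median was 2.49 over muscle-rich, 1.31 over marrow-rich and -0.92 over remaining spots. Over the remaining spots 6 of 13 bone matrix genes were at least 2-fold lower and none at least 2-fold higher. Only 8 genes (0.0954%) were at least 2-fold higher than all 3 classes. Of these only *Sln*, sarcolipin, a regulator of the muscle calcium pump, had 50 or more UMIs in the region, at 185, 123, 148 and 267 UPM against 78.9 in the rest. Its log2 ratio of 1.14 turned to -0.30 with the rest restricted to the shaft range, and to -0.46 for the low-muscle bone spots. No bone matrix, osteocyte or osteoclast gene was among the 8. At a share of 0.0954% over all genes, an absence from lists this small says nothing particular about them.

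Distance from the bone region split the remaining spots into a near and a far set, a split made after their values were seen. The 61 spots within 3 steps lay mostly on the outer face of the shaft, and 220 lay 7 or more steps away at the upper right end of the section, beyond the bone strips. Against the far spots 813 genes (9.69%) were at least 2-fold higher and 1030 (12.3%) at least 2-fold lower in the bone region, with a median of -0.17. Bone genes were on the lower side. The bone matrix list had 7 of 13 genes called lower and none higher (median -1.25), and it took 5.62% of UMIs there against 2.59% in the bone region. The osteoblast regulators had 6 of 7 called lower (median -1.61), the osteocyte genes 3 of 4 (median -3.15) and the osteoclast genes 4 of 15 (median -0.48).

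The gap between the far spots and the bone region differed between genes. *Dmp1* was at 415 UPM in the far spots and 50.2 in the bone region, and *Sost* at 326 and 34.1. *Bglap* was at 1225 and 226, *Alpl* at 275 and 43.1, and *Ctsk* at 3713 and 1839. *Ibsp* was the exception among these, at 396 in the far spots and 511 in the bone region. Although 7 of 13 matrix genes were called lower, *Col1a1* (-0.09), *Sparc* (-0.17) and *Spp1* (-0.38) had log2 ratios over the far spots within 2-fold. The upper block of side 2 had a bone matrix share of 6.09%, against 5.62% in the far spots. The far spots also had the highest levels of the cartilage gene *Col2a1* (3098 UPM) and the fat gene *Cfd* (5124 UPM). They did not hold all UMIs of these genes. Muscle-rich spots had 999 of *Col2a1* against 1330 in the far spots, and 3413 of *Cfd* against 2200. Only *Mgp*, *Pdpn* and *Ibsp* of the bone matrix, mineralization and osteocyte genes named here were higher in the bone region, with *Mgp* at 4685 against 2231 and *Pdpn* at 86.1 against 60.6. By list medians, bone matrix and osteoclast genes were higher in the bone region than in muscle-rich spots (2.49 and 2.01) and marrow-rich spots (1.31 and 0.48). Over all remaining spots the medians were -0.92 and -0.52. With muscle-rich spots left out of the rest, the bone matrix median was -0.14, the osteoclast median -0.13 and the counts of genes higher and lower were 432 and 902.

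**Figure D4:**
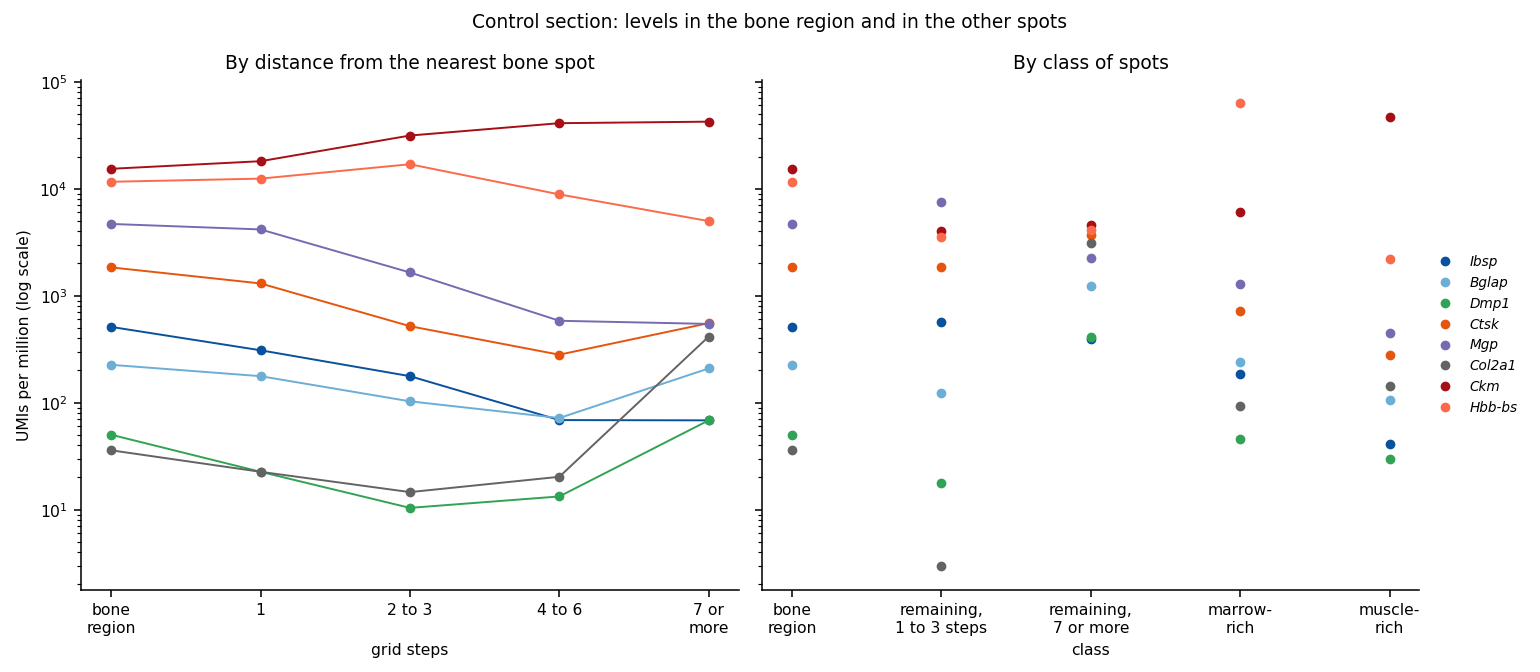
UPM (log scale) of 8 genes in the bone region and, in the left panel, in 4 bands of grid steps from the nearest bone spot, or, in the right panel, in classes of spots. *Ibsp* declines from 511 in the region to 68.4 at 7 or more steps and *Mgp* from 4685 to 545, whereas *Bglap*, *Dmp1* and *Col2a1* are at their lowest between 2 and 6 steps and are highest in the remaining spots 7 or more steps away. The bands differ in tissue, with fast muscle at 16.4% of UMIs at 1 step and 33.1% at 7 or more.

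Around the bone strips the levels declined in steps for some genes. *Ibsp* was at 511 in the region, 309 in spots 1 step away, 177 at 2 to 3 steps, 68.8 at 4 to 6 steps and 68.4 beyond. *Ctsk* was at 1839, 1302, 519, 281 and 554 in the same order, and *Mgp* at 4685, 4163, 1649, 583 and 545. The tissue also changed with distance. Fast muscle genes took 16.7%, 16.4%, 25.1%, 33.4% and 33.1% of UMIs in that order, and the part of muscle in the decline was not tested. *Dmp1* was at 50.2, 22.6, 10.4, 13.3 and 68.4, so within 6 steps it was highest in the bone region. The near remaining spots were close to the region for bone matrix and osteoclast genes. Their medians for bone over near spots were -0.15 and -0.01, against -0.22 for all genes. Medians were lower for mineralization (-0.68), collagen processing (-0.70), small proteoglycan (-0.71), tendon and periosteum (-0.71), Wnt (-0.57), BMP (-0.54) and matrix protease genes (-0.58). The osteoblast regulators (0.11) and osteocyte genes (0.89) had medians above 0. For fibroblast genes (-0.72), Schwann cell genes (-0.97) and slow muscle genes (-1.10) the near spots were above the region. *Pi16* was at 1167 there and 468 in the region, and *Nbl1* at 3208 and 1509. The 12 genes with the highest ratios under the naming rule were also higher in the near spots, except *Igkc* and *Arsb*. *Fzd2* was at 216 there and 172 in the region, and *Angptl1* at 998 and 501. *Igkc* was at 359 in marrow-rich spots and 301 in the region. For *Dmp1* (17.7) and *Sost* (11.8) the near spots were below the region. The near spots held 338520 UMIs of all genes, so both levels come from few UMIs and are uncertain. The osteocyte median over the near spots includes both genes.

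The inner and outer faces of the bone strips bordered different tissue. Spots 1 step to the inside (68) gave 9.26% of their UMIs to erythroid genes, and those 1 step to the outside (66) gave 0.924%. The bone region itself was at 2.50%. *Hbb-bs*, a β-globin of red cells, was at 40485 inside, 11609 in the region and 3818 outside. *Ckm* was at 9921 inside and 20573 outside. Bone matrix shares were 1.68% inside and 2.26% outside, and osteoclast shares 0.480% and 0.350%.

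The same comparison in the Loaded section set its bone spots (409020 UMIs) against 1285 other spots (4499787 UMIs). There 544 of the 8390 genes (6.48%) were at least 2-fold higher and 416 (4.96%) at least 2-fold lower, with a median of 0.20. Of the 1296 genes called higher in Control, 239 were also called higher in Loaded, which is 18.4% of the Control genes and 43.9% of the Loaded genes, and 26 were called lower there. Of the 221 called lower in Control, 50 (22.6%) were also lower in Loaded. Over 8385 genes, none of them a replicate of another, the log2 ratios of the sections had a Pearson correlation of 0.41. No difference between the sections was tested, and the make-up of the rest differed between them.

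Bone matrix genes had the higher median in Loaded, 2.50 against 1.56, with 12 of 13 called higher. *Ibsp* was at 2.77 (2.57 to 2.98) in Loaded and 2.41 in Control. The osteocyte genes had medians of 2.72 in Loaded and -0.14 in Control. *Dmp1* was at 418 UPM in the Loaded bone region against 36.4 in its rest, a log2 ratio of 3.52 (3.20 to 3.84), and *Sost* at 181 against 31.3. *Bglap* was at 3.09 (2.97 to 3.21). The osteoclast medians were 0.99 and 1.16. *Mgp* was at 0.01 (-0.11 to 0.13) in Loaded and 2.37 in Control. The lists of small proteoglycans (0.32 in Loaded, 1.65 in Control), fibroblasts (0.44 and 1.69), tendon and periosteum (0.25 and 1.34) and Schwann cells (0.21 and 1.85) had the higher median in Control. The fast muscle list had medians of -1.15 in Loaded and -0.71 in Control, and slow muscle genes had medians of -1.30 in Loaded and 1.00 in Control.

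**Figure D5:**
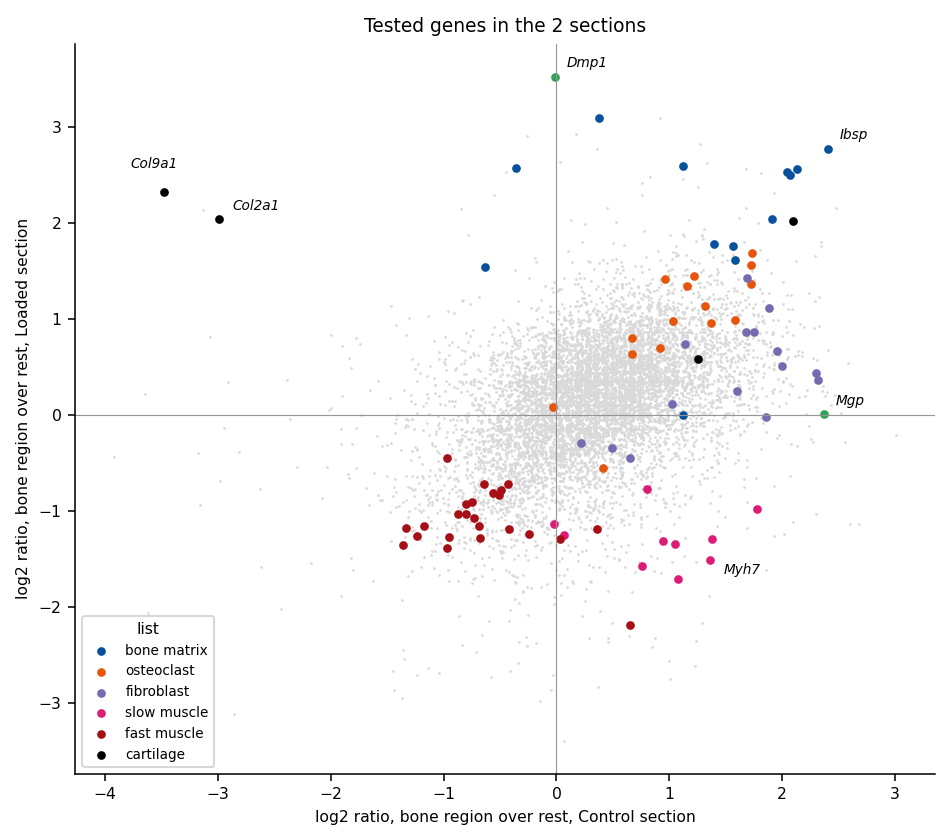
Log2 ratios of bone region over rest for compared genes in the Control (horizontal) and Loaded (vertical) sections, with genes of 6 lists in colour, *Dmp1* and *Mgp* in green and all others in light grey. *Ibsp* is high in both (2.41 and 2.77), *Dmp1* only in Loaded (-0.01 and 3.52), *Mgp* only in Control (2.37 and 0.01), and *Col2a1* and *Col9a1* are low in Control and high in Loaded.

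In these bulk-like sums of spots, fewer cells of a type and less RNA per cell cannot be told apart. Depth limited the low genes most. An osteocyte gene with 19 to 28 UMIs in the region had an interval more than 1 log2 unit wide.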

How the data were processed

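Visium libraries for formalin-fixed, paraffin-embedded tissue were made from 1 Control and 1 Loaded section by probe hybridization and sequenced. The authors deposited raw UMI counts per gene and spot, made with Space Ranger (2.0.0 per the file header) against mm10, with R 4.3.1 and Seurat named in the submitters' processing notes for later steps. The bone spots were taken from the authors' barcode list, which rests on histology viewed in Loupe Browser, and not from any count. No column of per-sample values was left unused (0).

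Spots with at least 500 UMIs and 250 genes were kept. Counts were summed over the spots of a region, divided by the total of the region, and compared as log2 ratios with exact conditional binomial 95% intervals. A sum of 0 was set to 3 UMIs, and no ratio was given where both sums were at most 3. Genes with at least 100 UMIs over the section were compared and called at 2-fold. Spots were not treated as replicates, so no test was run. The fast muscle list set the muscle-rich class (at least 10% of UMIs) and the erythroid and granulocyte lists together set the marrow-rich class (at least 5%). Sides, blocks and bands were set by the positions of the spots, and a step is the spacing of neighbouring spots. The 31 gene lists (486 genes, 12 of them absent from the deposited counts) and the members were chosen with earlier results of these data known. Members under the limit of 100 UMIs were not compared. Named genes were members of these lists, and the 12 highest and 12 lowest ratios among genes with at least 50 observed or expected UMIs in the region and all 4 blocks on the same side of the rest. Gene coordinates are from GENCODE M21 (GRCm38), matched by identifier for 19451 of 19465 genes, and promoter sequences from RefSeq. Alternatives were other scalings, spot and gene limits, spot weights and choices of spots. The ratio and its interval were tested on simulated sums that held counting error only. That check does not cover differences between spots or blocks. Python 3.11.15, numpy 2.4.6, scipy 1.17.1, pandas 2.3.3, matplotlib 3.10.9, R 4.3.3 and edgeR 4.0.16 (TMM factors only) were used.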

Additional observations from a re-analysis of the deposited data

Results flagged for a closer look

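In 9 of the 360 compared genes that were list members or named above, the bone region lay on opposite sides of its rest in the Control and Loaded sections, at least 2-fold each way and with both counting intervals clear of 0. Each group was 1 section, so these differences were not tested. Over all 8390 compared genes, by fold alone, 26 were called higher in Control and lower in Loaded and 6 the other way. Of the 9 genes, 4 slow muscle genes were higher than the rest in Control and lower in Loaded. In Control the slow muscle list took 1.57% of UMIs in the lower block of side 2. It took 0.327% to 0.476% in the other blocks and 0.317% in the rest. *Myh7* had log2 ratios of 1.36 and -1.51 (Control minus Loaded 2.88), *Tnnt1* 1.38 and -1.29 (2.67), *Myl3* 1.08 and -1.71 (2.79) and *Myl2* 1.05 and -1.34 (2.39). *Sln*, which regulates the muscle calcium pump, had 1.14 and -1.28 (2.43), with a Control ratio of -0.30 when the rest was restricted to the shaft range. *Acta2*, smooth muscle actin, had 1.02 and -1.53 (2.55). *Il34*, a ligand of the receptor of macrophages and osteoclast precursors, had 1.00 and -2.56 (3.57) from 13 and 1 UMIs in the bone regions. The cartilage collagens lay on the other side over the whole section. *Col2a1* had -2.99 in Control and 2.04 in Loaded (-5.03), and *Col9a1* -3.48 and 2.32 (-5.81), the latter from 6 and 5 UMIs in the bone regions. With the Control rest restricted to the shaft range their Control ratios were 1.56 and 1.04, on the same side as in Loaded.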

How the results depend on the processing

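No paired analysis was possible because each group is 1 section and the sections came from different mice. Of 1296 genes higher and 221 lower, TMM gave 301 and 946, the median of ratios 683 and 453, totals without the 20 most abundant genes 692 and 446, totals without muscle genes 700 and 436, and equal weight per spot 625 and 339. A limit of 300 UMIs per gene gave 482 and 112, and no limit 4386 and 405. With the rest restricted to the shaft range 685 genes were higher, without muscle-rich spots 432 were higher and 902 lower, and with bone spots of low muscle share 2744 and 926. Leaving out each block in turn gave 794 to 2288 higher and 218 to 540 lower, with list medians of 0.38 to 2.08 for bone matrix, 0.46 to 1.48 for osteoclasts and -0.39 to 0.15 for osteocytes. The count of 794 and the lowest bone matrix and osteoclast medians were without the upper block of side 2, and the count of 2288 without the lower block of side 1. The filter on spots moved none of these by over 1.5 times.

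Low-muscle bone spots gave medians of 3.09 (bone matrix) and 1.99 (osteoclast). The osteocyte median was -1.33 with equal weight, 1.79 within the shaft range and -1.69 without muscle-rich spots. Muscle-rich and marrow-rich limits of 20% and 10% gave 14 genes higher than every class and 130 higher than remaining spots, in place of 8 and 353. A gene or list median is called reversed if it was at least 2-fold in the main setting and changed sign. The new value could be near 0. Sign changes of smaller ratios, such as those of *Bglap* and *Alpl* with equal weight per spot, are not listed here. Without muscle-rich spots 3 list medians reversed, to -0.14 (bone matrix), -0.13 (osteoclast) and -0.35 (macrophage), and 28 of the 109 genes followed reversed. They were *Creb3l1* (-0.79), *Col1a2* (-0.66), *S100a9* (-0.64), *Mmp9* (-0.53), *Tcirg1* (-0.46), *Comp* (-0.33), *Col5a1* (-0.32), *Itgb3* (-0.19), *Id3* and *Plvap* (-0.18), *Acta2* (-0.17), *Col5a2* (-0.13), *Tnc* (-0.11), *Atp6v0d2* and *Wwtr1* (-0.10), *Lrp5* (-0.06), *Acp5* and *Cxcl12* (-0.04), *Sfrp2* (-0.03), *Ctsk* (-0.02), *Chrd* (-0.01), *Rab10* (0.03), *Timp4* (0.24), *Ss18l2* (0.43), *Scn4a* (1.03), *Myot* (1.10), *Ckm* (1.58) and *2310002L09Rik* (1.65). Other reversals were *Col1a2* (-0.16), *Mmp9* (-0.13) and *Itgb3* (-0.07) with equal weight, *Comp* (-0.34) and *Acan* (-2.00) without the upper block of side 2 (up to 1.86 and 2.76 without another block), *Col2a1* (1.56), *Col9a1* (1.04) and *Sln* (-0.30) within the shaft range, and *Sfrp5* (-0.54), *Sln* (-0.46), *Myl2* (-0.37) and *S100a9* (-0.30) in low-muscle bone spots. The alternatives on spots change which tissue is compared by construction, and the cause of the other shifts was not tested.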
